A study of Mus musculus and Rattus norvegicus with 30 samples.

Results

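Transient receptor potential (TRP) channels are cation channels that open in response to temperature, plant irritants, lipids, oxidants and mechanical or osmotic stress. In the dorsal root ganglion (DRG), which holds the cell bodies of the sensory neurons, several of them are carried by nociceptors and cold-sensing neurons and turn a physical or chemical stimulus into a depolarising current. Trpv1 is the receptor for capsaicin and noxious heat, Trpa1 the receptor for mustard oil and other reactive irritants, and Trpm8 the receptor for menthol and cool temperatures.

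The genes described here are the 9 channel genes Trpv1, Trpv2, Trpv4, Trpa1, Trpm8, Trpm2, Trpm3, Trpc1 and Trpc5. They were picked by gene symbol, not by a cut on measured values, but with earlier results of these data known. All 9 were found among the 54315 mouse features. All 9 were also listed among the 39281 rat features, but only 5 of them had any read pair there. The rat Trpv1, Trpv2, Trpv4 and Trpm2 genes were listed at 0 in all 8 libraries, so nothing is said of their level in rat. Of the 32623 Ensembl genes in the rat table, 17036 (52.2%) were at 0 in every library. All 6658 assembled rat LncRNAs had read pairs and lay on chromosomes 1 to 9, X and Y, with 0 on chromosomes 10 to 20, which held 80671 of the 219118 rat splice junctions (36.8%). A 0 in rat, for a channel gene or a marker, is therefore not read as absence of expression, and rat CPM and rat shares of features called are over the counted genes alone. No rat annotation was used to place the genes at 0 on a chromosome.

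The mouse libraries came from L3 and L4 DRG of adult animals of both sexes, 1 animal per library, and RNA was ribodepleted. BALB/c mice (6 sham, 4 injured) and B10.D2 mice (5 sham, 5 injured) were taken at day 28 after spared nerve injury (SNI), in which the common peroneal and sural branches are cut and the tibial branch is left whole, or after a sham operation. The rat libraries came from L5 DRG of male Wistar rats, 3 animals pooled in each, with poly-A selected RNA. There were 4 sham pools and 4 pools taken at day 21 after L5 spinal nerve transection (SNT). In SNT the L5 spinal nerve is ligated and cut. The tibial branch stays connected in the SNI model, so the mouse ganglia held injured and uninjured neurons together, and in bulk RNA fewer cells of a type and less RNA per cell cannot be told apart.

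Libraries held 29.99 to 41.9 M counted read pairs in mouse and 12.0 to 17.9 M in rat. All 8 sensory neuron markers were counted in every mouse group (summed level 5726 to 6836 CPM, read pairs per M counted pairs after scaling). In rat, 4 of the 7 sensory neuron markers that were listed (Rbfox3, Tubb3, Uchl1 and Pou4f1) were at 0 in all libraries, as were all 4 satellite glia markers, so the makeup of the rat ganglion could be checked only in part. Along the first principal component of the rat libraries, sham pool 4 (score -6.33) and SNT pool 1 (score 1.09) lay between the other sham pools (-48.7 to -35.7) and the other SNT pools (30.6 to 49.9). The rat fold changes of the channel genes, and of other genes called, are therefore also given without these 2 pools, while marker sums are over all pools. The 2 pools were left out for lying between the groups on the component that separates sham from SNT, so leaving them out favours larger differences by construction (3753 features were called with all pools and 6100 without both). Values without them, or without SNT pool 1 alone, are a description and add no support to a call.

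The mouse channel genes lay on 7 chromosomes of GRCm38 (mm10). Trpv1 (ENSMUSG00000005952) spanned chr11:73234292-73261242 on the plus strand and Trpv2 (ENSMUSG00000018507) chr11:62574486-62600515, also on the plus strand. Trpa1 (ENSMUSG00000032769) spanned chr1:14872648-14918862 on the minus strand, and Trpm8 (ENSMUSG00000036251) chr1:88277661-88389293 on the plus strand. Trpv4 (ENSMUSG00000014158) lay on chr5:114622152-114658421, Trpm2 (ENSMUSG00000009292) on chr10:77907722-77970563 and Trpc1 (ENSMUSG00000032839) on chr9:95705082-95750375, all 3 on the minus strand. Trpm3 (ENSMUSG00000052387) was the longest, 856365 bases at chr19:22139046-22995410 on the plus strand, and Trpc5 (ENSMUSG00000041710) the only one on the X chromosome, at chrX:144381671-144688180 on the minus strand.

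The deposited splice junctions of mouse DRG gave the exon structure in use. Of the 217 introns annotated in the 9 genes, 187 were present as a junction. A further 34 junctions used an annotated splice site of these genes in a way the annotation does not list: 11 joined annotated sites in a new pair, 15 used a new acceptor and 8 a new donor. Of these 221 junctions, 219 began with GT and ended with AG, and the others, annotated introns of Trpv2 and Trpa1, began with GC. Junctions inside the genes with no annotated end, 6 in Trpm3 and 1 in Trpm2, are not among them.

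Only 3 of these junctions started 5′ of the annotated gene, 2 at Trpv1 and 1 at Trpm3. They are shown because they place exon sequence ahead of the first annotated exon of the capsaicin receptor. Both Trpv1 junctions joined the same acceptor as the annotated first intron, at chr11:73238226, from donors 3206 and 1244 bases 5′ of the annotated start, with introns of 7139 and 5177 bases in place of 3858. In the sequences below, read from the plus strand of the RefSeq GRCm38.p6 genome, exon bases are in capitals and intron bases in lower case.
Trpv1 far donor, chr11:73231057-73231106: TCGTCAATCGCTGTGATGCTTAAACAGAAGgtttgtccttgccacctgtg
Trpv1 near donor, chr11:73233019-73233068: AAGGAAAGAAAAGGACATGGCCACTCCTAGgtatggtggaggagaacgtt
Trpv1 annotated donor, chr11:73234338-73234387: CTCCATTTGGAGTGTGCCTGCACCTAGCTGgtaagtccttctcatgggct
Trpv1 shared acceptor, chr11:73238206-73238255: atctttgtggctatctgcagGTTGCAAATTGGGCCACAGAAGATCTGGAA

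All 3 Trpv1 donors carried GT as the first intron bases, and the acceptor carried AG as the last. The Trpm3 junction started 98028 bases 5′ of the annotated start and spanned an intron of 656403 bases to an annotated acceptor.
Trpm3 donor, chr19:22040989-22041038: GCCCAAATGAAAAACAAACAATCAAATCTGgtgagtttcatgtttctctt
Trpm3 acceptor, chr19:22697402-22697451: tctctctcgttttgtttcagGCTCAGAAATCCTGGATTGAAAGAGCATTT

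The junctions carry no read numbers and no library names, so their use in each strain or after injury is not known.

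Levels between genes were compared per length, as CPM divided by the merged exon length in kb. Trpv1 stood highest in each of the 4 mouse groups, with 36.7 ± 7.91 in BALB/c sham (SD, n = 6) and 47.6 ± 10.7 in B10.D2 sham (SD, n = 5). Trpa1 and Trpv2, a vanilloid-type relative of Trpv1, came next at 15.6 ± 1.999 and 15.4 ± 1.36 in BALB/c sham, with overlapping ranges. Their ranges did not overlap in B10.D2 sham, where Trpa1 was at 20.03 ± 2.22 and Trpv2 at 16.8 ± 1.02.

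Trpm8 followed at 9.28 ± 1.04 per kb in BALB/c sham, and Trpc1, a broadly expressed canonical subunit, at 6.23 ± 0.26. Trpm3, a heat and steroid gated channel, and Trpm2, which opens with ADP-ribose and oxidants, were at 4.203 ± 0.251 and 3.66 ± 0.47, with overlapping ranges. They changed places in B10.D2 sham, again with overlapping ranges. Trpc5, a cold-sensitive canonical channel, and Trpv4, which responds to osmotic stress and warmth, were lowest at 0.65 ± 0.12 and 0.43 ± 0.09, from 61 to 182 and 46 to 115 read pairs per mouse library. In B10.D2 the order of these low genes was turned round, Trpv4 above Trpc5.

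The merged exon lengths of Trpm3 (24437 bases) and Trpm2 (12459 bases) take in every annotated transcript, which lowers a level per length. Without dividing by length, Trpv1 was still highest, at 171 CPM as the mean over the 4 mouse groups. Trpm3 came next in BALB/c sham, BALB/c SNI and B10.D2 sham, while in B10.D2 SNI Trpa1 (89.02 ± 11.1 CPM, SD, n = 5) was level with Trpm3 (88.1 ± 3.58), and the ranges of Trpa1 and Trpm3 overlapped in both B10.D2 groups.

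**Figure D1:**
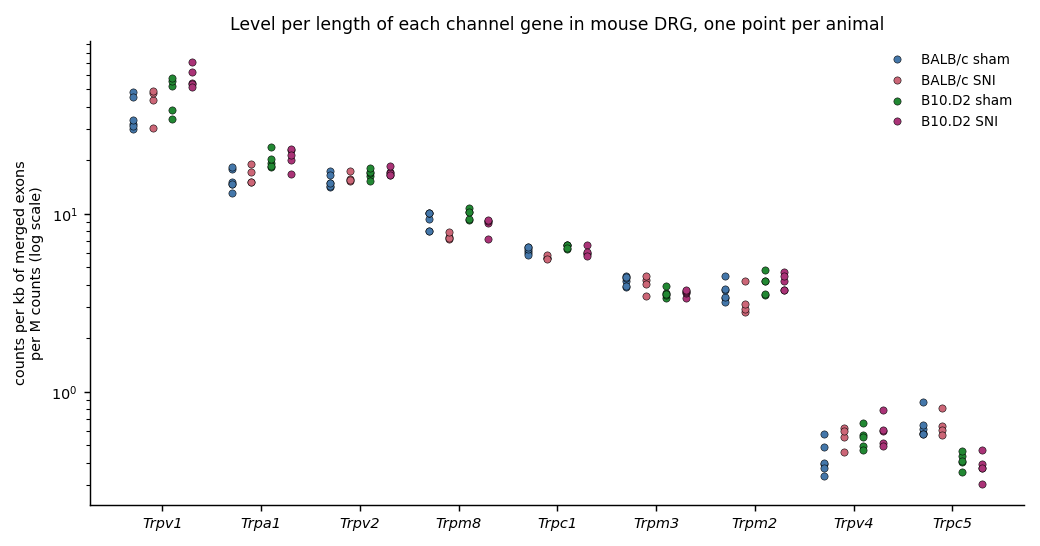
Level of each channel gene per length in mouse DRG (counts per kb of merged exons per M counts, log axis), 1 point per animal, coloured by group, with genes ordered by their mean over the 4 groups. Trpv1 is highest in all groups, Trpv4 and Trpc5 are lowest, and Trpc5 is the gene whose BALB/c points all lie above its B10.D2 points.

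SNI was compared with sham in each strain to see which channel genes move in the ganglion of a partly cut nerve. Trpm8 was the only one of the 9 called differentially expressed (DE) in BALB/c (edgeR quasi-likelihood test, adjusted p under 0.05), against 9.69% of the 24685 features tested. None of the 9 was called DE in B10.D2 by edgeR or by DESeq2, against 4.58% of features by edgeR. An unadjusted edgeR p under 0.05 was held by 2 of the 9 and by 4149 of the 24685 features. The 9 had a median log2 value of 0.02 in the first strain and 0.04 in the second, beside 0.00 and 0.01 over all features. The injury itself was marked in the same libraries, where 10 of 10 injury markers, Atf3 and Npy among them, rose in BALB/c and 9 of 10 in B10.D2. Their rise was smaller in B10.D2, with a median log2 value of 1.39 against 2.39 in BALB/c. In BALB/c they summed to 216 to 276 CPM in sham and 688 to 836 in SNI. In B10.D2 the sums were 224 to 277 and 325 to 584. In the interaction 9 of the 10 had values below 0 and 1 was called. Its bearing on the channel gene calls was not tested.

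Trpm8 in BALB/c sham ran from 37.7 CPM through a median of 45.9 to 48.1, and in BALB/c SNI it was 35.0, 34.2, 34.5 and 37.5. Each of the 4 injured animals was below each of the 6 sham animals, by a narrow margin. The fold change was 0.80 (log2 -0.32, SE 0.08, edgeR adjusted p = 0.0147), and it held in all 20 fits that left out 1 library (log2 -0.36 to -0.28, adjusted p at most 0.0424). The 20 include fits without a B10.D2 library, which leave the compared animals unchanged. Within females alone the log2 fold change was -0.39 (adjusted p = 0.118) and within males alone -0.26 (adjusted p = 0.231).

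In B10.D2, Trpm8 was at 43.5, 48.7, 44.5, 51.2 and 48.7 CPM in sham and at 34.1, 43.2, 42.0, 42.8 and 43.8 in SNI. Sham replicate 58 lay below the highest SNI animal. The log2 value of -0.20 (SE 0.08) did not pass (edgeR adjusted p = 0.189). The strain by injury interaction for Trpm8 was 0.12 (SE 0.11, edgeR adjusted p = 1), so a difference between the strains in the response of Trpm8 was not shown.

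Markers of other cells were looked at beside the Trpm8 value. Of the 8 sensory neuron markers 7 had values below 0 and 1 was called lower in BALB/c after SNI. Their sum ran from 5754 to 6494 CPM in sham and from 5726 to 6336 in SNI. Of the 4 markers of myelinated neurons 2 were called lower (sum 2415 to 2756 CPM in sham, 1674 to 2033 in SNI). Of the 3 peptidergic nociceptor markers 1 was called lower, and all 3 had values below 0. The 4 markers listed as nonpeptidergic (Mrgprd, P2rx3, Scn10a and Scn11a) had values below 0. The 3 C-low threshold mechanoreceptor markers had values above 0, and none of either list was called. Of the 4 macrophage markers 3 rose (sum 28.1 to 69.6 CPM in sham, 56.98 to 88.9 in SNI). Of the 4 satellite glia markers 1 rose (sum 768 to 878 CPM in sham, 864 to 986 in SNI). Of the 3 fibroblast and of the 3 endothelial markers 1 each rose. All markers of the satellite glia, fibroblast and endothelial lists had values above 0. None of the 4 Schwann cell, 3 neutrophil or 3 T cell markers was called. No marker of these lists was at 0 in mouse. Their part in the Trpm8 value was not tested.

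Trpc1 showed the next clearest shift. It was at 47.1 to 52.3 CPM in BALB/c sham (median 50.3) and at 45.5, 45.3, 46.9 and 45.03 in SNI. The groups did not overlap, but the change was small (log2 -0.13, SE 0.04) and missed the threshold (edgeR adjusted p = 0.0586). It passed with DESeq2 (adjusted p = 0.0286), with median-ratio size factors, with a stricter count filter, and without BALB/c sham replicate 55 (edgeR adjusted p = 0.0489), BALB/c sham replicate 56 (0.0376) or B10.D2 SNI replicate 76 (0.0346). In B10.D2 the log2 value was -0.11 (SE 0.04, edgeR adjusted p = 0.166), and it passed only without B10.D2 SNI replicate 76, the highest of that group (log2 -0.14, adjusted p = 0.0452).

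Trpv4 pointed upward in BALB/c, from 1.37 to 2.37 CPM in sham (median 1.61) to 2.27, 2.56, 2.46 and 1.87 in SNI. Sham replicates 55 and 57 lay within the range of the injured animals. The log2 fold change was 0.39 (SE 0.14, edgeR adjusted p = 0.0942), and without sham replicate 55 it was 0.48 (adjusted p = 0.0371). In B10.D2 the Trpv4 value was 0.07 (SE 0.14).

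Trpv1 was spread widely between animals. BALB/c sham ran from 110 to 177 CPM (median 121) and BALB/c SNI was 112, 161, 176 and 180, with full overlap. B10.D2 sham was 126, 141, 191, 205 and 213, and B10.D2 SNI 201, 263, 199, 230 and 190, again overlapping. The log2 fold changes of 0.22 (SE 0.16, edgeR adjusted p = 0.457) and 0.28 (SE 0.16, adjusted p = 0.401) did not pass.

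The other five genes moved little in mouse. Trpa1 was at 0.08 (SE 0.10) in BALB/c and 0.07 (SE 0.10) in B10.D2 on the log2 scale, and Trpv2 at 0.05 (SE 0.06) and 0.04 (SE 0.06). Trpm3 was at -0.05 (SE 0.06) and 0.02 (SE 0.06), Trpm2 at -0.17 (SE 0.11) and 0.05 (SE 0.11), and Trpc5 at 0.02 (SE 0.14) and -0.12 (SE 0.15). None of these values passed, in either strain.

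**Figure D2:**
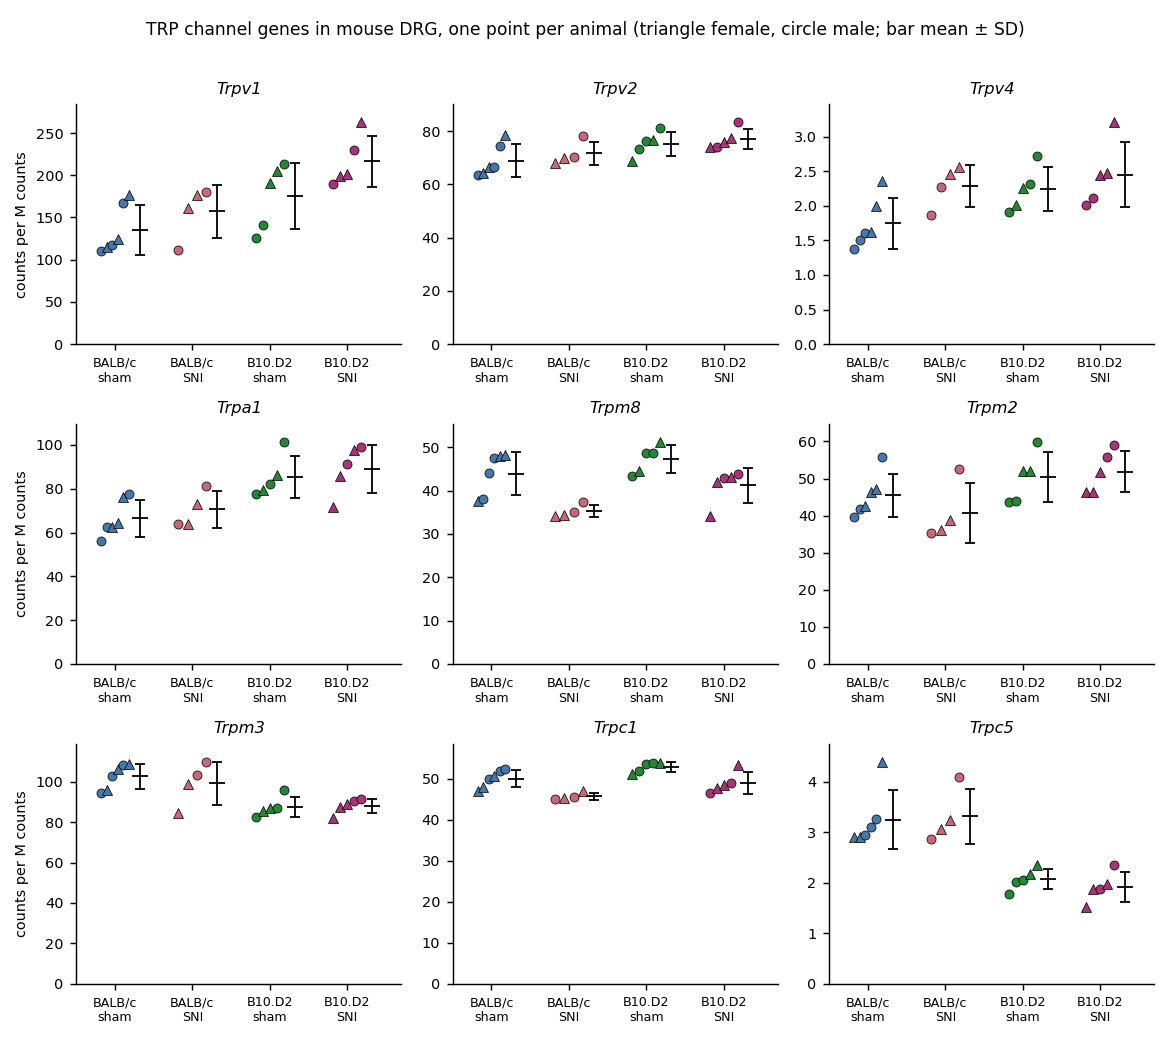
Level of each channel gene (counts per M counts, vertical axes from 0) in the 4 mouse groups, 1 point per animal (triangles female, circles male), with bars at the mean ± SD. Trpm8 in BALB/c SNI lies at 34.2 to 37.5, below all 6 BALB/c sham animals, and for Trpv1 every B10.D2 SNI animal (190 to 263) is above every BALB/c animal, sham (110 to 177) or SNI (112 to 180), while B10.D2 sham overlaps the other groups.

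No channel gene was called in the strain by injury interaction (0 of 9 by edgeR, beside 0.0243% of all features, and 0 of 9 by DESeq2). An unadjusted edgeR p under 0.05 was held by 1073 of 24685 features and by none of the 9. None was called between female and male mice either (0.243% of features). The largest sex value was that of Trpv4, 0.25 higher in females on the log2 scale (SE 0.10), with an unadjusted p of 0.0218 and an edgeR adjusted p of 0.323, and no other member had an unadjusted p under 0.05. Among all features, 2899 of 24685 had an unadjusted edgeR p under 0.05 between the sexes. DESeq2 also called none of the 9 between the sexes.

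More of the genes were called between strains than after injury, as was also so over all features (9.69% after SNI in BALB/c and 4.58% in B10.D2). Between sham animals 4 of the 9 genes were called (21.6% of all features were) and between SNI animals 3 of 9 (20.8% of features). Trpc5 and Trpa1 were called in both comparisons, which share no animal. In sham, DESeq2 called 3 of the 9.

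Trpc5 was at 2.90 to 4.39 CPM in BALB/c sham (median 3.03) and at 1.78, 2.02, 2.17, 2.34 and 2.05 in B10.D2 sham, with no overlap. In SNI it was at 4.09, 3.23, 3.06 and 2.86 in BALB/c and 1.87, 1.97, 1.53, 2.35 and 1.88 in B10.D2, again with no overlap. The B10.D2 level was lower by -0.65 on the log2 scale in sham (SE 0.14, edgeR adjusted p = 0.00118) and by -0.78 in SNI (SE 0.15, adjusted p = 0.000499). Both calls held in all 20 fits with 1 library left out, some of which left the compared animals unchanged.

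Trpa1 went the other way. It was at 56.02 to 77.6 CPM in BALB/c sham (median 63.4) and at 77.8, 82.2, 79.4, 86.2 and 101 in B10.D2 sham, and the groups just failed to overlap. In SNI it was at 63.9, 63.97, 73.1 and 81.2 in BALB/c and 71.5, 97.5, 85.9, 99.0 and 91.3 in B10.D2, with overlap. The log2 differences were 0.35 in sham (SE 0.10, edgeR adjusted p = 0.0096) and 0.34 in SNI (SE 0.11, adjusted p = 0.0253). The SNI call was lost without BALB/c SNI replicate 49 (adjusted p = 0.0955) or 64 (0.0897), or B10.D2 SNI replicate 76 (0.0677) or 89 (0.0635).

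Trpm3 was lower in B10.D2 sham, at 82.5 to 95.7 CPM against 94.6 to 109 in BALB/c sham, with an overlap of 1 animal (log2 -0.24, SE 0.06, edgeR adjusted p = 0.00314). In SNI the difference was -0.16 (SE 0.06, adjusted p = 0.0640). Trpv4 was higher in B10.D2 sham by 0.40 (SE 0.14, edgeR adjusted p = 0.0414), a call that DESeq2 did not make (adjusted p = 0.0598), and the value was 0.10 in females alone and 0.62 in males alone. It was also lost without BALB/c sham replicates 50, 51, 56 or 71, B10.D2 sham replicates 58 or 60, or BALB/c SNI replicates 64 or 65 (adjusted p 0.0550 to 0.137).

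Trpm2 was higher in B10.D2 SNI (46.3 to 58.9 CPM) than in BALB/c SNI (35.2, 36.2, 38.859 and 52.5), with overlap through 1 animal (log2 0.36, SE 0.12, edgeR adjusted p = 0.0341). This call was lost without BALB/c SNI replicates 49, 64 or 65 or B10.D2 SNI replicates 76, 89 or 90 (adjusted p 0.0633 to 0.132). Trpv1 was higher in B10.D2 by 0.39 in sham (SE 0.15) and 0.45 in SNI (SE 0.17) on the log2 scale without passing (edgeR adjusted p = 0.0737 and 0.0641). All 5 B10.D2 SNI animals, at 190 to 263 CPM, were above all 4 BALB/c SNI animals, at 112 to 180.

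In rat, SNT was compared with sham for the 5 channel genes that were counted. All 5 had values below 0, and 2 were called DE, Trpc5 and Trpc1 (2 of 5, beside 27.4% of the 13690 features tested). The median log2 fold change of the 5 was -0.72, beside 0.00 over all features. The call depended on the pools: it was 4 of 5 without SNT pool 1 (36.1% of features), 4 of 5 without both intermediate pools (43.9% of features), and 4 of 5 with DESeq2 (26.6% of features), Trpa1 and Trpm8 being added in each. It ran from 0 to 4 with 1 pool left out, being 0 without sham pool 2 or 3 or SNT pool 2, 3 or 4. With no filter on low counts it was 1. Features called numbered 3753 of 13690 with all pools and 1483 of 14008 to 2219 of 13938 in the fits with 0. They numbered 3696 of 22245 with no filter. The calls of Trpc5 and Trpc1 were also lost with the number shared by the titles of 1 sham and 1 SNT pool as a replicate block. Under it 2558 of 14678 features were called.

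Trpc5 was at 6.05, 10.4, 9.48 and 7.10 CPM in the sham pools and at 5.88, 2.01, 3.56 and 3.54 in the SNT pools. The groups did not overlap, with SNT pool 1 just under the lowest sham pool. The fold change was 0.45 (log2 -1.14, SE 0.31, edgeR adjusted p = 0.0239), and it was lost without sham pool 2 or 3 or SNT pool 2, 3 or 4 (adjusted p 0.0546 to 0.0693). Without both intermediate pools it was -1.51 (SE 0.28, adjusted p = 0.00232).

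Trpc1 was at 54.4, 71.8, 60.8 and 45.3 CPM in sham and 49.8, 35.2, 37.9 and 42.5 in SNT, and sham pool 4 and SNT pool 1 made the groups overlap. Its fold change was 0.71 (log2 -0.49, SE 0.16, edgeR adjusted p = 0.0440). The call was lost without sham pools 1, 2 or 3 or SNT pools 2, 3 or 4 (adjusted p 0.0768 to 0.127), and without both intermediate pools the value was -0.69 (SE 0.13, adjusted p = 0.00266).

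Trpa1 was at 124, 153, 151 and 91.5 CPM in sham and at 130, 36.7, 35.1 and 63.7 in SNT. SNT pool 1 lay inside the sham range while the other 3 SNT pools lay below it. The log2 fold change was -0.97 (SE 0.39, edgeR adjusted p = 0.0848). Without SNT pool 1 it was -1.52 (adjusted p = 0.00224), and without both intermediate pools -1.66 (SE 0.22, adjusted p = 0.000388).

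Trpm8 was at 173, 230, 211 and 133 CPM in sham and 173, 73.8, 76.5 and 130 in SNT, with the same pool inside the sham range. On the log2 scale the difference was -0.72 (SE 0.28, edgeR adjusted p = 0.0801), and it became -0.997 without SNT pool 1 (adjusted p = 0.0117), -0.85 without sham pool 4 (adjusted p = 0.0390) and -1.13 without both (SE 0.22, adjusted p = 0.00263). Trpm3 stayed within its spread, at 246, 231.96, 286 and 223 CPM in sham and 198, 224, 248 and 227 in SNT (log2 -0.14, SE 0.12, edgeR adjusted p = 0.389; -0.12 and 0.446 without both intermediate pools).

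Markers of several cell types moved with these values in rat. The 4 markers listed as nonpeptidergic, Mrgprd, P2rx3, Scn10a and Scn11a, all fell (sum 1194 to 2155 CPM in sham, 224 to 970 in SNT). Whether all 4 are confined to nonpeptidergic cells was not tested. Of the 3 tested sensory neuron markers 2, Isl1 and Elavl4, fell while Prph did not (log2 0.04). The peptidergic markers summed to 1156 to 1881 CPM in sham and 167 to 1312 in SNT, and none of 3 was called. All 3 had values below 0 (log2 -1.80 to -0.95), and 2 had an edgeR unadjusted p under 0.05, as had 5815 of 13690 rat features. Both tested markers of myelinated neurons fell, Ntrk3 (log2 -0.54, edgeR adjusted p = 0.0132) and Pvalb (log2 -3.11, adjusted p = 0.0223), with a sum of 257 to 413 CPM in sham and 84.5 to 171 in SNT, Nefh and Ntrk2 being at 0. Of the 3 C-low threshold mechanoreceptor markers 1 fell (sum 16.5 to 23.7 CPM in sham, 9.04 to 20.7 in SNT).

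Markers of other cells rose in part. The 1 macrophage marker tested, Cx3cr1, rose (log2 1.35, edgeR adjusted p = 0.0109; sum 11.3 to 27.8 CPM in sham, 39.1 to 51.02 in SNT), and Cd68, Csf1r and Aif1 were at 0. Of 2 fibroblast markers tested 1 rose (sum 878 to 2003 CPM in sham, 1855 to 2695 in SNT, Col1a1 at 0), and 1 of 3 T cell markers rose (0.976 to 12.1 in sham, 5.57 to 11.5 in SNT). None of 3 neutrophil markers was called, nor was Prx, the 1 Schwann cell marker tested, and both endothelial markers were at 0. The 7 injury markers tested rose, and over the 8 counted their mean log2 level was 5.45 in sham pool 4 against 4.14 to 4.36 in the other sham pools, and 5.75 in SNT pool 1 against 5.98 to 6.26 in the other SNT pools. The part of these markers in the values of Trpa1, Trpm8, Trpc1 and Trpc5 was not tested.

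**Figure D3:**
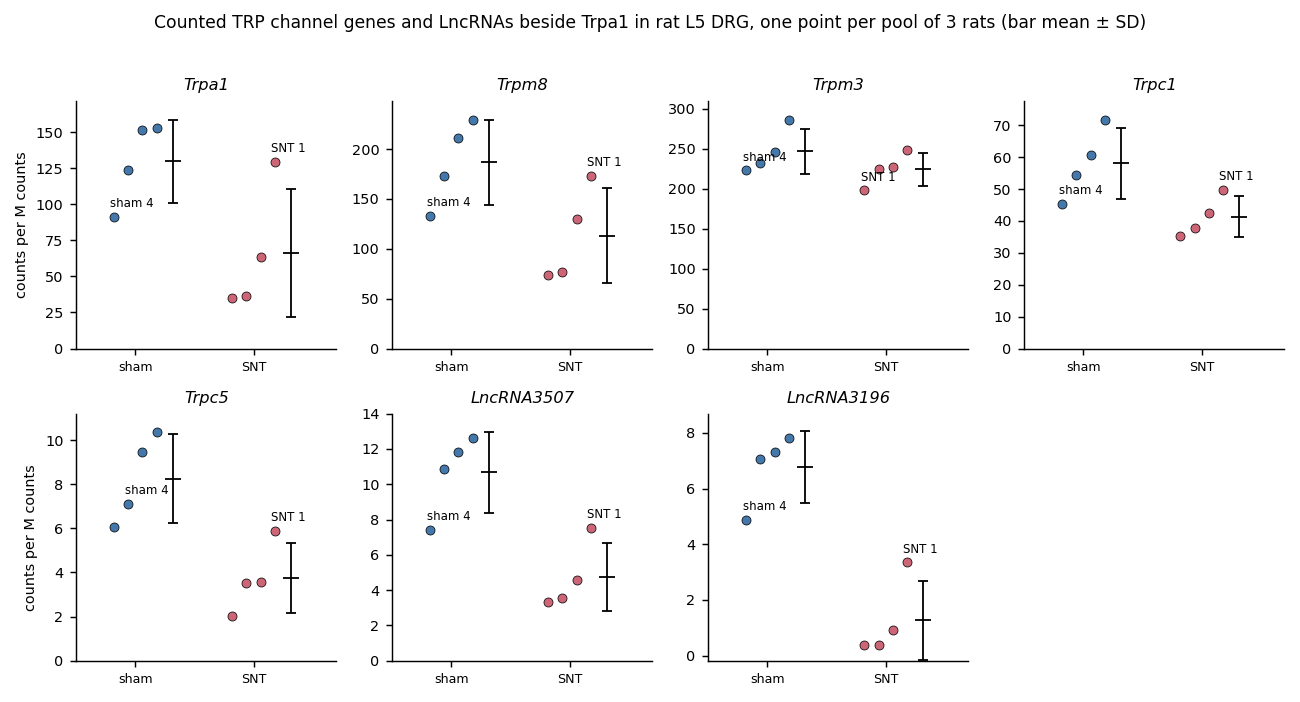
Level of the 5 counted channel genes and of 2 assembled LncRNAs beside Trpa1 (counts per M counts) in rat L5 DRG, 1 point per pool of 3 rats, with bars at the mean ± SD and the intermediate pools sham 4 and SNT 1 named. For Trpa1 and Trpm8, SNT 1 lies among the sham pools while the lowest SNT pools are at 35.1 and 73.8.

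Set side by side, the values in BALB/c, B10.D2 and rat were -0.32, -0.20 and -0.72 for Trpm8, -0.13, -0.11 and -0.49 for Trpc1, 0.08, 0.07 and -0.97 for Trpa1, 0.02, -0.12 and -1.14 for Trpc5 and -0.05, 0.02 and -0.14 for Trpm3 on the log2 scale. Species, injury, day, ganglion level and RNA selection all differed between the mouse and rat series and cannot be told apart, and no test was made across them.

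**Figure D4:**
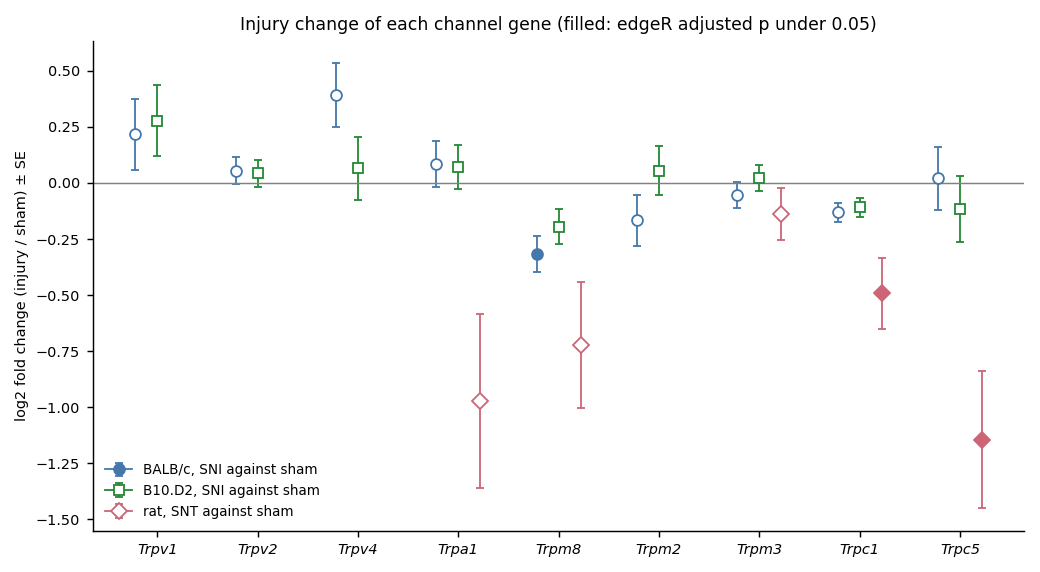
Injury change of each channel gene as log2 fold change ± SE in BALB/c, B10.D2 (SNI against sham) and rat (SNT against sham), with filled symbols for edgeR adjusted p under 0.05. Only Trpm8 in BALB/c and Trpc1 and Trpc5 in rat are filled, and the rat symbols of Trpv1, Trpv2, Trpv4 and Trpm2 are missing because those genes were listed at 0.

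Among the 20 mouse libraries, after removing group means and sex, Trpv1 deviated together with Trpa1 and with Trpm2 (Pearson r = 0.84 for both) and Trpa1 together with Trpm2 (r = 0.80). Trpv2 went with Trpv1 and Trpa1 (r = 0.70 for both), and Trpm8 with Trpa1 (r = 0.71). Trpv4 ran against them, from r = -0.56 with Trpm2 to -0.23 with Trpv2, and Trpc1 and Trpc5 were less related to Trpv1 (r = 0.31 and -0.12). These are descriptions over points that share their library and dissection, without a test.

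**Figure D5:**
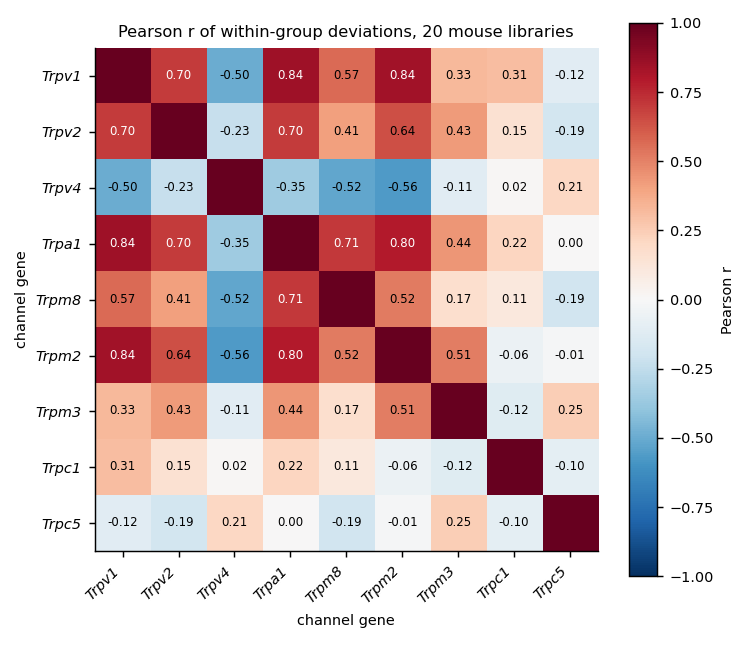
Pearson r between the within-group deviations (log2 scale, group means and sex removed) of each pair of channel genes over 20 mouse libraries, coloured from blue (-1) to red (1). Trpv1, Trpv2, Trpa1, Trpm8 and Trpm2 form a red block with r of 0.41 or more, and the row of Trpv4 is blue against them.

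Among the 18593 features averaging 1 CPM or more, the nearest to Trpv1 by the same measure were Greb1l, Negr1 and Cntn5 (r = 0.97, 0.96 and 0.96). Nearest to Trpa1 was Rgs8 (r = 0.95), followed by Scg3 and Rasgrp1, and nearest to Trpm2 was Srd5a2 (r = 0.96), followed by the enkephalin precursor gene Penk and Rab3d. The nearest to Trpv2 were the homeobox gene Isl2, D130043K22Rik and Slc8a2 (r = 0.87 to 0.89), and to Trpm8 4933431E20Rik, Mrps27 and Fstl1 (r = 0.85 to 0.88). Trpc1 was nearest to Serac1, Arxes2 and Cpsf6 (r = 0.87 to 0.90), Trpm3 to Klhdc10, Vwa8 and BC067074 (r = 0.81 to 0.85), and Trpv4 to Dusp6 and the assembled LncRNA1619 and LncRNA2659 (r = 0.77 to 0.82). Trpc5 was nearest to 3 assembled LncRNAs, LncRNA4835, LncRNA1368 and LncRNA3438 (r = 0.79 to 0.81).

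Long noncoding RNAs assembled from the same reads lay beside 6 of the 9 mouse channel genes and were numerous inside one of them. Within 100 kb there were 21, of which 18 passed the count filter, and edgeR called none after SNI in either strain. An unadjusted edgeR p under 0.05 was held by 0 of them in BALB/c and 2 in B10.D2. Of all 24685 features tested, 9.69% were called in BALB/c and 4.58% in B10.D2. An unadjusted p under 0.05 was held by 5739 and 4149 of them. Of the 21, 10, LncRNA3429 to LncRNA3438, lay on the same strand inside Trpm3 without touching its exons, each of 5.6 to 24.2 kb of exon sequence. The mouse RNA was ribodepleted, and whether these are separate from unspliced Trpm3 RNA was not tested. LncRNA6141 (7 exons, chr11:73231370-73237193, plus strand) lay across the first annotated exon of Trpv1 without overlapping it, in a stretch that holds the nearer of the 2 upstream donors and not the farther one. Its log2 value after SNI was 0.21 in the BALB/c and 0.53 in the B10.D2 mice (edgeR adjusted p = 0.664 and 0.222).

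In rat, 7 assembled LncRNAs are assigned by the study to Trpa1 or Trpm3, and 6 of them passed the filter. The 2 that were called both belong to Trpa1 and both fell. Of all 13690 rat features tested, 27.4% were called and 15.1% were called lower. LncRNA3507, antisense to Trpa1 (33 exons, chr5:3737558-3783928 of rn6, minus strand), was at 10.9, 11.8, 12.6 and 7.43 CPM in sham and 7.52, 3.54, 3.34 and 4.59 in SNT. Only sham pool 4 and SNT pool 1 overlapped (log2 -1.17, SE 0.28, edgeR adjusted p = 0.0168), and the call was lost without sham pool 3 (adjusted p = 0.0534) or SNT pool 2 (0.0515). Without both intermediate pools the value was -1.62 (SE 0.19).

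LncRNA3196 (3 exons, chr5:3754456-3761754, plus strand), a neighbour of Trpa1, was at 7.30, 7.81, 7.05 and 4.89 CPM in sham and 3.35, 0.38, 0.39 and 0.92 in SNT, with no overlap (log2 -2.44, edgeR adjusted p = 0.0164; -3.73 without both intermediate pools). For Trpa1 and for both LncRNAs, SNT pool 1 was the highest SNT pool. The 4 LncRNAs assigned to Trpm3 ran from -0.38 to 0.43 and were not called. A position for the rat channel genes themselves is not given, because no rat annotation was used.

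The wider TRP family was read from a list of 19 further genes. In mouse 14 passed the filter, of which 3 rose in BALB/c, 2 rose in B10.D2, and none was called lower. Over all features 4.82% were called higher in BALB/c and 2.1% in B10.D2. Pkd2l1, a polycystin-type channel gene, went from 0 to 5 read pairs per library in BALB/c sham to 62 to 107 in SNI (0.09 ± 0.05 CPM, n = 6, against 2.36 ± 0.46, n = 4; log2 4.71, edgeR adjusted p = 1.89e-07). In B10.D2 it went from 1 to 8 read pairs to 12 to 40 (log2 2.81, adjusted p = 0.000508), and the interaction of -1.90 (SE 0.71) did not pass (unadjusted p = 0.0139, edgeR adjusted p = 1).

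Mcoln2, an endolysosomal channel gene, rose in both strains (log2 0.95 and 1.03, edgeR adjusted p = 0.0302 and 0.0248) from low levels of 0.51 ± 0.17 CPM in BALB/c sham (n = 6) and 0.64 ± 0.19 in B10.D2 sham (n = 5). Its call was lost in BALB/c without sham replicates 56, 57 or 71 or SNI replicates 49, 64 or 65 (adjusted p 0.0583 to 0.107), and in B10.D2 without sham replicates 60, 67 or 77 or SNI replicates 69 or 89 (adjusted p 0.0512 to 0.0860). Trpm6, a magnesium channel gene, rose in BALB/c (log2 0.35, edgeR adjusted p = 0.0448), a call kept in only 5 of the 20 fits with 1 library left out (adjusted p 0.00799 to 0.173).

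In rat 11 of the 19 were tested, 5 were at 0 in all libraries, and 3 fell (15.1% of all features did). Trpc4, a close relative of Trpc5, fell from 1.93 ± 0.55 to 0.52 ± 0.33 CPM (n = 4 each; log2 -1.90, edgeR adjusted p = 0.0151). Trpm6 fell from 17.7 ± 3.52 to 3.55 ± 4.49 CPM (log2 -2.33, edgeR adjusted p = 0.0287). The call of Trpm6 was kept in 2 of the 8 fits with 1 pool left out, those without sham pool 4 or SNT pool 1, and the call of Trpc4 in all 8. Without both intermediate pools the log2 values were -2.54 for Trpc4 and -3.90 for Trpm6. Trpm6 thus had values of opposite sign in BALB/c and rat, 2 series that were not tested against each other.

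Of 12 genes for partners and sensitisers of these channels, 11 were tested in mouse, and 2 fell in BALB/c (4.87% of all features did) and 3 in B10.D2 (2.48%). Prokr1, a prokineticin receptor gene, fell in BALB/c (log2 -0.25, edgeR adjusted p = 0.00686) and in B10.D2 (log2 -0.21, adjusted p = 0.0343). The B10.D2 call was lost without sham replicates 58, 60, 67 or 77 or SNI replicates 69, 89 or 90 (adjusted p 0.0634 to 0.106). Tmem100, whose product links Trpa1 and Trpv1, fell in B10.D2, from 42.1 ± 8.25 to 31.0 ± 2.54 CPM (n = 5 each; log2 -0.42, edgeR adjusted p = 0.0218), while the BALB/c value of -0.11 was not called and the interaction was not either (edgeR adjusted p = 1). Its B10.D2 value was -0.12 in females alone and -0.66 in males alone. That call was lost without sham replicates 58 or 60 or SNI replicates 89 or 90 (adjusted p 0.0519 to 0.0687). In rat, 7 partner genes were tested and none was called by edgeR, 4 having an unadjusted p under 0.05, while DESeq2 called 1. Of all 13690 rat features tested, edgeR called 27.4%, and 5815 had an unadjusted p under 0.05.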

How the data were processed

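Mouse and rat DRG libraries were strand-specific and paired-end. According to the study's methods and the labels, the authors aligned reads with STAR to mm10 (GRCm38) and rn6 (Rnor_6.0), counted pairs over Ensembl genes and assembled LncRNAs with HTSeq, and deposited raw counts; gene models were extended by 1000 bases before LncRNAs were assembled. The deposited tables of log2 fold changes and p-values, the authors' own comparisons, were used for gene symbols alone. From the counts, edgeR 4.0.16 (R 4.3.3) was run with TMM scaling, filterByExpr, group and sex as terms in mouse and group in rat, a quasi-likelihood F test and Benjamini-Hochberg adjustment over all features tested; adjusted p under 0.05 is called DE. The SE is the log2 fold change over the square root of F. CPM uses TMM-scaled library sizes. Scripts were tested on simulated data. DESeq2 1.42.0, median-ratio size factors, other count filters, no sex term, 1 strain or 1 sex alone, and each library left out were the alternatives. Of 49585 mouse Ensembl identifiers 49326 matched GENCODE vM21, which gave positions and merged exon lengths. Depths were 29.99 to 41.9 M counts in mouse and 12.0 to 17.9 M in rat.

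Groups came from the labels, and 2 mouse samples with no counts here were not analysed here. All 9 channel genes were named in each comparison, other TRP and partner genes where called after injury (2 of these are counted but not reported here by name), LncRNAs where called after injury or where they lie at the junctions described, and the 3 features nearest to each gene by r. The genes and lists were chosen with earlier results of these data known. The labels pool 3 rats per library and name 1 mouse per library. Each rat sham library shares a number in its title with 1 SNT library, and the labels do not say what that number marks. Same-numbered rat sham and SNT libraries had r = 0.05, -0.29, -0.11 and -0.09 between their deviations from the group means. With so few pools per group these values cannot exclude a shared block. The numbers were not taken as pairs in the main fit.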

Additional observations from a re-analysis of the deposited data

Results flagged for a closer look

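Within the 46 sets of one channel gene in one group that had counts, 2 had 1 library far from the others by Dixon's criterion, and chance gives about 1 in 20. Trpm8 in B10.D2 SNI replicate 69 was at 34.1 CPM while the other 4 animals of that group were at 42.0 to 43.8. Trpc5 in BALB/c sham replicate 55 was at 4.39 CPM while the other 5 were at 2.90 to 3.25.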

How the results depend on the processing

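Among the 9 channel genes, 1 was called after SNI in BALB/c, 2 with DESeq2, with median-ratio size factors or with at least 10 counts in every library, 0 in females or in males alone, and 1 to 3 with 1 library left out. Over all features in BALB/c, 2392 of 24685 were called, 902 of 25060 in females alone and 415 of 24814 in males alone. The number was 2791 of 24800 with DESeq2 and 1643 to 2649 with 1 library left out. In B10.D2 the 0 channel gene calls became 1 at most with 1 library left out. There 1130 of 24685 features were called, 187 of 25060 in females alone, 95 of 24814 in males alone and 665 to 1214 with 1 library left out. Between strains, 4 calls in sham ranged from 3 to 6 and 3 calls in SNI from 1 to 4 with 1 library left out, and the SNI count was 5 with no filter on low counts. Between strains, features called ranged from 4515 to 5473 in sham and from 4217 to 5269 in SNI with 1 library left out. With no filter on low counts 5283 of 41893 were called in SNI. The interaction and the sex comparison gave 0 of the 9 channel genes in every alternative run. In rat, the 2 calls became 4 with DESeq2 or without both intermediate pools. They became 1 with no filter on low counts and 0 to 4 with 1 pool left out. Rat features called numbered 3753 of 13690, 4304 of 16171 with DESeq2 and 6100 of 13892 without both intermediate pools. They numbered 3696 of 22245 with no filter, 1483 to 5041 with 1 pool left out and 2558 of 14678 with the replicate block described next. With the number shared by the titles of 1 sham and 1 SNT pool as a replicate block the rat count was 0 (Trpc5 -1.19, edgeR adjusted p = 0.0690; Trpc1 -0.48, adjusted p = 0.109), so both rat calls were lost under it; the numbers were not shown to pair the pools. The cause of these changes was not tested.

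Other TRP genes called in BALB/c numbered 3, then 1 with the strain alone or in males alone and 1 to 3 with 1 library left out. In B10.D2 they numbered 2, then 1 with at least 10 counts in every library, 0 in females or males alone, and 1 to 2 with 1 library left out. In rat 3 became 1 to 4 with 1 pool left out. Partner genes called in BALB/c numbered 2, then 1 in females alone, 0 in males alone and 2 to 4 with 1 library left out. In B10.D2 they numbered 3, then 1 with the strain alone or in males alone, 0 in females alone and 1 to 3 with 1 library left out. In rat 0 became 1 with DESeq2 or at least 10 counts in every library. It became 2 without both intermediate pools and 0 to 1 with 1 pool left out. Calls over all features moved too, as given above for the channel genes. With the strain alone they were 1747 of 23935 in BALB/c and 921 of 24048 in B10.D2. With at least 10 counts in every library they were 1065 of 20141 in B10.D2 and 3440 of 12016 in rat.

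Small log2 values changed sign. In BALB/c, Trpc5 ran from -0.10 to 0.14 with 1 library left out and was -0.12 in females alone, Trpm3 ran from -0.10 to 0.0021 and was 0.0615 in males alone, and Trpv2 was -0.0252 in females alone. In B10.D2, Trpc5 was 0.12 in males alone, Trpm2 was -0.12 in females alone, Trpm3 ran from -0.0037 to 0.0475 and was -0.0059 in females alone, and Trpv4 ran from -0.0296 to 0.165 and was -0.16 in males alone. None of these was called. Counts of 46 to 182 read pairs per mouse library limit Trpv4 and Trpc5.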
